A study of Homo sapiens with 4 samples.

Results

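The tumour necrosis factor (TNF) ligands and their receptors were examined in HepG2 cells, a human line established from a liver tumour, named hepatoblastoma in the labels. Members were the genes whose symbols begin TNFRSF or TNFSF followed by a family number, together with NGFR, FAS, FASLG, CD27, CD40, CD70, LTA, LTB, LTBR, EDAR, EDA, EDA2R and TNF. The rule found 43 genes, 27 receptors and 16 ligands, among 30863 genes in the deposited table. All groups were wild-type HepG2 cells, treated for 48 h with AMF (2 libraries) or with the solvent DMSO (2 libraries), and poly(A)-selected RNA was sequenced. The title of the series names amentoflavone, a plant biflavonoid. The labels disagree on the agent, with AMF at 90 µM in the treatment protocol and an agent called Tub B at 80 µM in the design text. Which compound and dose were used is thus uncertain, and AMF is used as the name of the group.

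TNF ligands are mostly trimeric membrane proteins, many of which can be cut from the cell surface, and their receptors are type I membrane proteins. Receptors with a cytoplasmic death domain recruit adaptors such as FADD or TRADD and can lead to caspase activation. Receptors without that domain bind TRAF adaptors and pass signals to NF-kB and to MAP kinases, while decoy receptors bind ligand without a full death signal. In liver, FAS and the receptors for TRAIL (TNFSF10) are known for their part in hepatocyte death, and TNF receptor signalling is known for its part in inflammation and regeneration.

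Levels are normalized counts, that is reads divided by a size factor per library, and an error after ± is an SD (n = 2 in each group). A log2 change is the AMF minus the DMSO mean of log2(normalized count + 1), a scale that understates the change of genes with few reads. Tests were made with limma across all genes averaging 1 normalized count or more, and a gene was called at a Benjamini-Hochberg adjusted p under 0.05. Library totals ranged from 24226586 to 26966210 reads, so a single read equals 0.929 to 1.03 normalized counts. The labels do not say whether replicates came from separate cultures, and the p-values reflect library-to-library spread, which may be technical. Mitochondrially encoded genes took 9.53% and 9.61% of reads in AMF libraries and 7.73% and 7.69% in DMSO libraries. Of 9 hepatocyte markers 6 fell in AMF, 1 (HNF4A) rose and 2 (ALB and FGB) did not pass. All 9 averaged 100 normalized counts or more, where 31.1% of all genes were lower and 23.6% higher. The summed level of these markers was 387846 and 368072 in AMF libraries and 515529 and 497778 in DMSO libraries. APOB was its largest part, with means of 134597 in AMF and 209830 in DMSO. The part of either shift in the results below was not tested. Changes in RNA per cell and changes in the number of cells that express a gene cannot be told apart in these bulk libraries.

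Among tested receptors more passed as higher in AMF than as lower, and most tested ligands did not pass. Of the 43 members, 36 passed the filter on low values and 14 of these were called, against 31.8% of all genes tested. The called members were 11 higher and 3 lower in AMF, where 15.6% of all genes tested were higher and 16.2% lower. Among the 19 members averaging 100 normalized counts or more 12 were called, 10 higher and 2 lower, beside 54.7% of all genes at that level, 23.6% higher and 31.1% lower. The median log2 change was 0.36 over the 36 tested members and 0.04 over all 23828 genes tested. Of 24 tested receptors, 10 rose, 2 fell and 12 did not pass, and of 12 tested ligands, 1 rose, 1 fell and 10 did not pass. Levels differed between these roles, since 16 receptors but 3 ligands averaged 100 normalized counts or more, and the difference between receptors and ligands was not tested. Largest were the rise of TNFRSF1B and the fall of NGFR. In 18 of the 36 tested members both AMF libraries lay above both DMSO libraries and in 6 below, beside 63.4% of all genes tested with groups that do not overlap in either direction.

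The fits were repeated with 1 library left out at a time. Without AMF replicate 1 or AMF replicate 2 limma-trend called 0 genes of any kind, with 6583 and 6386 genes at an unadjusted p under 0.05. With voom on the recovered reads, 5 of the 14 members passed whichever library was left out. These were TNFRSF1B, TNFRSF21, TNFRSF10A, NGFR and TNFRSF19. The share of all genes that passed in every one of these fits was not counted, so this number cannot be set beside it. The fold of no called member moved by more than 1.46 times in those fits.

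**Figure D1:**
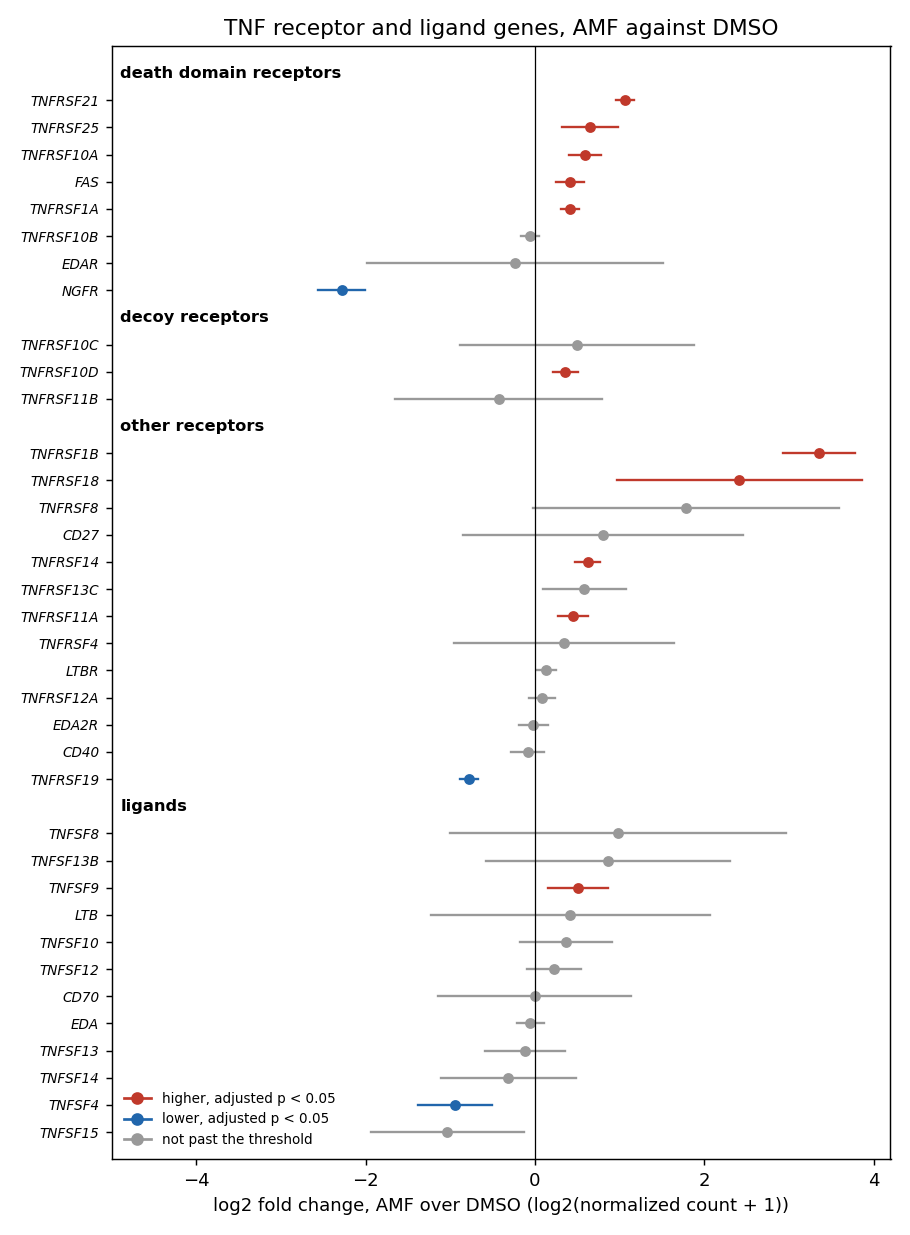
Log2 fold change of AMF over DMSO (x axis) for the 36 tested members, by role, with the limma 95% confidence interval as a line. The 11 members in red were higher and the 3 in blue lower at an adjusted p under 0.05, and wide intervals mark members with few reads.

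TNFRSF1B, the TNF receptor without a death domain, had 265 and 289 normalized counts in the AMF libraries, against 23.0 and 29.8 in the DMSO libraries. Both AMF libraries lay far above both DMSO libraries, with means of 277 ± 17.6 in AMF and 26.4 ± 4.80 in DMSO, a 10.5-fold difference. Its log2 change was 3.35 (SE 0.197), with a limma adjusted p of 1.14e-08, and on the deposited log2 scale TNFRSF1B differed by 1.71. The other receptor for TNF, TNFRSF1A, which carries a death domain and is found on most cells, had 3846 and 3752 in AMF and 2780.0 and 2944 in DMSO. TNFRSF1A rose by 0.41 (SE 0.05, limma adjusted p = 1.71e-05), a 1.33-fold difference with no overlap between groups. Set per length as RPKM (reads scaled by exon length and library total), TNFRSF1A exceeded TNFRSF1B by 13.7 and 12.2 times in AMF libraries and by 114 and 93.0 times in DMSO libraries. TNFRSF1A thus stayed the more abundant of the pair in all 4 libraries, by a smaller ratio in AMF. TNF itself had 0 and 2 reads in AMF and 1 and 0 reads in DMSO, which is under the floor of 3 reads in every library, so no change could be measured at this depth.

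Among the receptors with a death domain, 5 of 8 rose, 1 fell and 2 did not pass. Of these 8, 7 averaged 100 normalized counts or more and 6 of the 7 were called, beside the 54.7% of all genes at that level. TNFRSF21, a death receptor known from nervous and immune tissue, had 8536 and 8288 normalized counts in AMF, against 3835 and 4222 in DMSO. It rose by 1.06 (SE 0.0501, limma adjusted p = 1.25e-09), a 2.09-fold difference between means of 8412 ± 176 in AMF and 4028 ± 274 in DMSO. Per length it stood at 93.6 ± 1.74 RPKM in AMF and 44.2 ± 3.34 in DMSO. Its share of the summed receptor level per length was 28.9% and 28.5% in AMF libraries, against 16.5% and 17.0% in DMSO libraries. TNFRSF21 was first of the 43 members per length in AMF and came after TNFRSF10B in DMSO.

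TNFRSF25, the receptor of TNFSF15, had 198 and 192 normalized counts in AMF and 141 and 109 in DMSO, a log2 change of 0.65 (SE 0.155, limma adjusted p = 0.00467). The groups did not overlap, but the call of TNFRSF25 ended without DMSO replicate 2 (limma adjusted p = 0.0527). FAS, the receptor of FASLG, had 731 and 769.5 in AMF and 551 and 578 in DMSO, a rise of 0.41 (SE 0.0774, limma adjusted p = 8.11e-04). FAS also had no overlap between groups, and its call ended without DMSO replicate 1 (limma adjusted p = 0.0525). Its ligand FASLG had 1 and 2 reads in AMF and 0 in both DMSO libraries, which is too few for a comparison.

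NGFR, the low-affinity neurotrophin receptor, fell most of all members. It had 85.4 and 81.4 normalized counts in AMF libraries, against 395 and 425 in DMSO libraries. Every AMF value lay below every DMSO value by a wide margin. The log2 change was -2.28 (SE 0.129, limma adjusted p = 7.77e-09), and the AMF mean was 0.203 times the DMSO mean. On the deposited log2 scale NGFR differed by -1.48. Of 9 fibroblast and endothelial markers 7 were tested, of which 2 fell (COL1A1 and PDGFRB) and 2 rose (PECAM1 and VWF). The fibroblast collagen COL1A1 had 6 and 8 reads in AMF and 116 and 84 in DMSO, and fell by 3.70 on the log2 scale (limma adjusted p = 1.16e-06). PDGFRB, a growth factor receptor of mesenchymal cells, fell by 2.37 (limma adjusted p = 3.23e-05). COL1A2 and the endothelial receptor KDR had at most 1 read in a library. The summed level of the list was 355 and 317 in AMF libraries and 373 and 383 in DMSO libraries. PECAM1 was the largest part of that sum in each library, with 289 and 277 normalized counts in AMF and 145 and 185 in DMSO. The sum thus hides the falls of COL1A1 and PDGFRB. The part of the listed cell types in the fall of NGFR was not tested. EDAR, the ectodysplasin receptor of skin appendages, had at most 5.00 normalized counts in a library and did not pass.

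**Figure D2:**
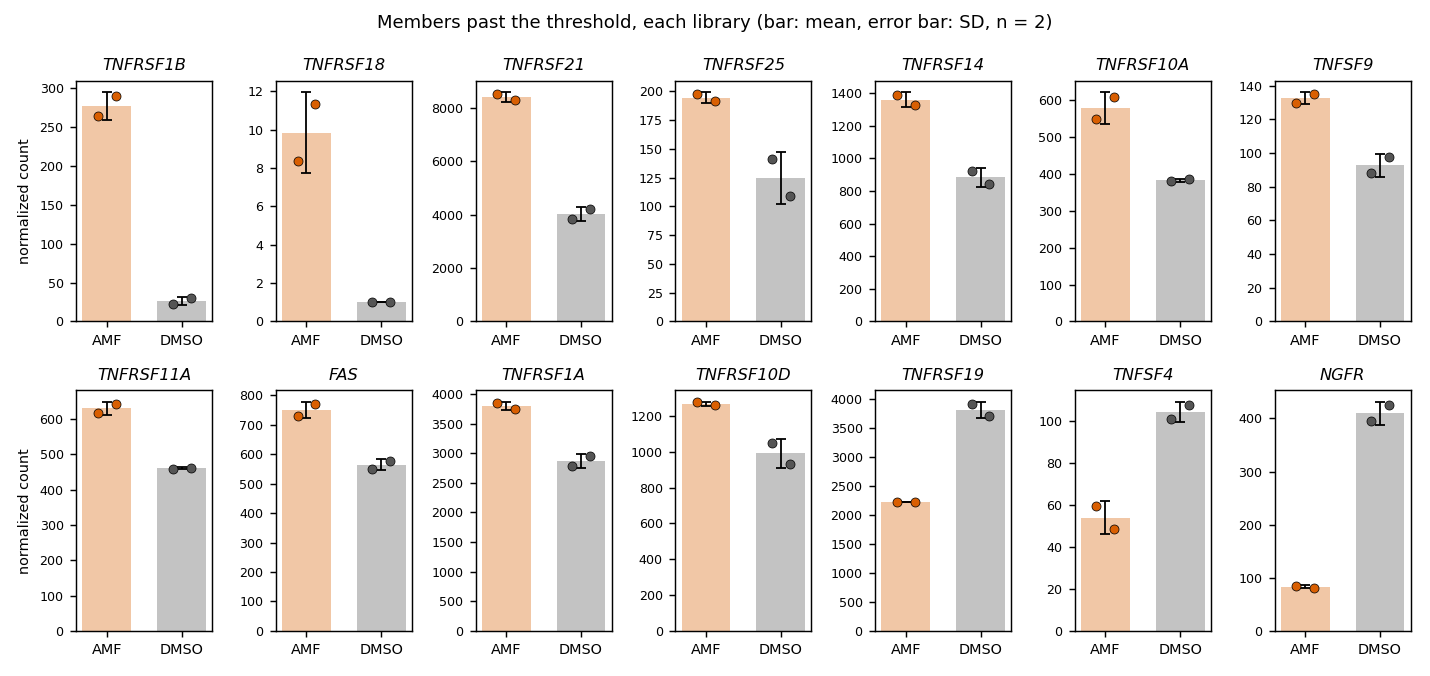
Normalized counts (y axis, from 0, a separate scale per gene) of the 14 called members in each AMF and DMSO library, with bars for the mean and error bars for the SD (n = 2). The points of the groups do not overlap in any panel; TNFRSF1B, TNFRSF21 and NGFR show the widest gaps among members with means above 10, and TNFRSF18 rests on few reads.

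Of the 4 membrane receptors for TRAIL, 2 rose and 2 did not pass, TNFRSF10C among the latter with few reads. Of all genes tested 15.6% were higher, and 23.6% of those averaging 100 normalized counts or more. TNFRSF10A, a death receptor, had 548 and 608 normalized counts in AMF and 379.9 and 385 in DMSO, and rose by 0.59 (SE 0.0894, limma adjusted p = 1.20e-04). TNFRSF10D, a decoy with a truncated death domain, had 1276 and 1261 in AMF and 1048 and 934 in DMSO, and rose by 0.36 (SE 0.0699, limma adjusted p = 0.00107). For both genes the AMF libraries lay above the DMSO libraries. TNFRSF10B, the other TRAIL death receptor, had 6744 and 6737 in AMF and 6692 and 7424 in DMSO. The groups overlapped, and its log2 change of -0.06 had a 95% interval of -0.17 to 0.04 (limma adjusted p = 0.368). Without DMSO replicate 1 the change of TNFRSF10B was -0.14, which voom called lower (adjusted p = 0.00146) and limma-trend did not (adjusted p = 0.0648), and without DMSO replicate 2 it was 0.01. The decoy TNFRSF10C stood at 4.64 and 6.18 in AMF and at most 4 reads in a DMSO library, and did not pass. Per length, TNFRSF10B made up 70.4% and 69.8% of the summed level of these receptors in AMF libraries and 75.2% and 78.4% in DMSO libraries. TNFRSF10A made up 10.0% and 11% in AMF and 7.46% and 7.11% in DMSO. These genes are related in sequence, and how reads were split among them was not tested. Their ligand TNFSF10 had 55.7 and 53.6 normalized counts in AMF and 48.0 and 37.0 in DMSO, and the log2 change of 0.37, with an interval of -0.18 to 0.91, did not pass. The remaining decoy, TNFRSF11B (osteoprotegerin), had 5 and 6 reads in AMF and 8 and 7 in DMSO and did not pass.

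Of the 13 tested receptors with neither a death domain nor a decoy role, 4 rose, 1 fell and 8 did not pass. Averaging 100 normalized counts or more were 8 of them, 3 higher and 1 lower, beside 23.6% and 31.1% of all genes. Beside TNFRSF1B, TNFRSF14 rose, a receptor of TNFSF14 that also binds the inhibitory lymphocyte protein BTLA. It had 1390.1 and 1327 normalized counts in AMF and 924 and 842 in DMSO (log2 change 0.62, SE 0.0690, limma adjusted p = 6.76e-06). TNFRSF11A, known as RANK and as the receptor of TNFSF11 in osteoclasts, had 617 and 643 in AMF and 459 and 462 in DMSO (0.45, SE 0.0811, limma adjusted p = 5.39e-04). Both genes showed replicate pairs that were far closer to each other than to the other group. TNFRSF18, a co-stimulatory receptor of T cells, had 9 and 11 reads in AMF and 1 read in each DMSO library. Its ratio of AMF to DMSO was 9.64 with an exact 95% interval of 2.34 to 85.1 for counting error, and its limma adjusted p was 0.0127 with a log2 change of 2.42 (SE 0.675). The size of the TNFRSF18 change depended on the scale, at 0.38 on the deposited log2 values and 3.14 with a pseudocount of 0.1. The call of TNFRSF18 ended without DMSO replicate 1 (limma adjusted p = 0.0787).

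TNFRSF19, an orphan member known from hair follicles and the nervous system and as a Wnt-responsive gene, was the receptor besides NGFR that fell. It had 2218 and 2222 normalized counts in AMF, against 3914 and 3713 in DMSO. The replicates lay close together and the groups well apart, with a log2 change of -0.78 (SE 0.0504) and a limma adjusted p of 2.95e-08. The AMF mean was 0.582 times the DMSO mean.

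Several well-measured receptors did not pass. LTBR, the lymphotoxin beta receptor, had 2918 and 2881 in AMF and 2585 and 2694 in DMSO. It lay just outside the threshold (log2 change 0.14, 95% interval 0.03 to 0.24, limma adjusted p = 0.0537) although the groups did not overlap, and it passed with library totals as scaling (limma adjusted p = 0.0278). TNFRSF12A, the receptor of TNFSF12, had 2089 and 2027 in AMF and 1785 and 2107 in DMSO, so DMSO replicate 2 exceeded both AMF libraries. Its log2 change was 0.09 (95% interval -0.06 to 0.24), and it passed without DMSO replicate 2 (0.20, limma adjusted p = 0.0315). CD40, which activates NF-kB in antigen-presenting cells, had 513 and 477 in AMF and 496 and 555 in DMSO, and its interval ran from -0.28 to 0.11. EDA2R, a receptor of the EDA-A2 form of EDA and a known p53 target, had 547 and 555 in AMF and 568 and 551 in DMSO, with an interval of -0.19 to 0.15. TNFRSF13C, the receptor of the B cell survival factor TNFSF13B, had 75.2 and 76.2 in AMF and 57.0 and 44.1 in DMSO and did not pass (0.58, limma adjusted p = 0.0643), but was called among genes with a mean of 10 or more.

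**Figure D3:**
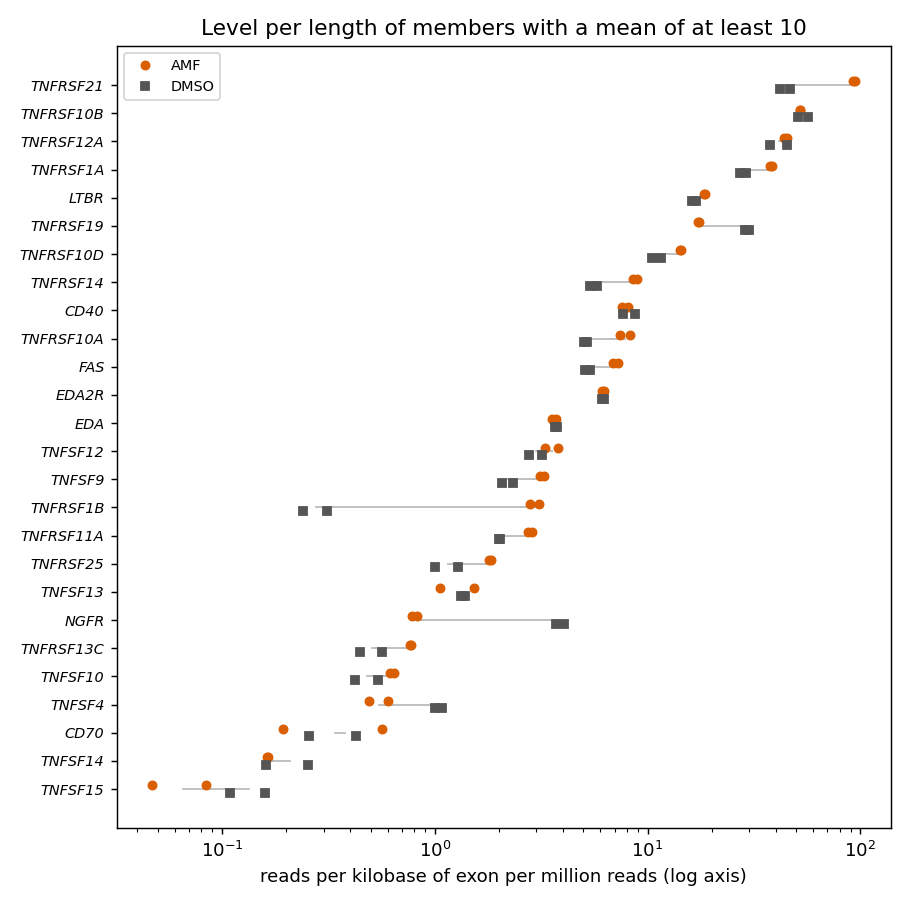
Level per length (x axis, log scale, RPKM) of the 26 members averaging 10 normalized counts or more, ordered by their mean in AMF. Circles are AMF libraries and squares DMSO libraries; TNFRSF1B and NGFR lie farthest apart between groups, and TNFRSF21 leads in AMF.

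The order of the members by level per length put TNFRSF21, TNFRSF10B, TNFRSF12A and TNFRSF1A at the head in AMF, with 93.6 ± 1.74, 52.3 ± 0.0842, 44.6 ± 0.844 and 37.9 ± 0.577 RPKM. In DMSO the order was TNFRSF10B with 53.9 ± 4.36, TNFRSF21 with 44.2 ± 3.34, TNFRSF12A with 41.5 ± 5.16 and TNFRSF19 with 29.4 ± 0.864. TNFRSF21 and TNFRSF12A did not differ in DMSO beyond their spread, and neither did TNFRSF19 and TNFRSF1A, which had 28.2 ± 1.36. The summed level of all receptors was 328 and 324 in AMF libraries and 253 and 273 in DMSO libraries. That of all ligands was 12.9 and 14.5 in AMF and 12.7 and 12.5 in DMSO, so receptor transcripts outweighed ligand transcripts in each library.

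Ligands were low and mostly without a call. TNFSF9, the co-stimulatory ligand of TNFRSF9, had 130 and 135 normalized counts in AMF and 88.0 and 97.5 in DMSO, and rose by 0.51 (SE 0.165, limma adjusted p = 0.0278). The call of TNFSF9 ended without DMSO replicate 1 (limma adjusted p = 0.142). TNFSF4, the ligand of TNFRSF4, had 59.4 and 48.4 in AMF and 101 and 108 in DMSO, and fell by 0.95 on the log2 scale (SE 0.204, limma adjusted p = 0.00228). The call of TNFSF4 ended without DMSO replicate 1 (limma adjusted p = 0.0768), while the groups of both ligands stayed apart. The receptor TNFRSF9 had 1 and 2 reads in AMF and 0 in both DMSO libraries. TNFRSF4 had at most 8.36 normalized counts in a library.

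EDA, the ectodysplasin ligand, was the most abundant ligand per length in each group, at 3.63 ± 0.0970 RPKM in AMF and 3.71 ± 0.0704 in DMSO, though in AMF it did not differ from TNFSF12 (3.55 ± 0.357) beyond their spread. Its normalized counts were 624 and 646 in AMF and 654 and 664 in DMSO, with a 95% interval of the log2 change from -0.22 to 0.11. TNFSF12, the ligand of TNFRSF12A, had 155 and 178 in AMF and 153 and 131 in DMSO, with an interval of -0.09 to 0.55. TNFSF12 and TNFSF13, a B cell survival factor, neighbour each other and share exons with a read-through gene that had 1 read over the 4 libraries. TNFSF15, the ligand of TNFRSF25, had 9.29 and 16.5 in AMF and 22.0 and 31.8 in DMSO. The groups did not overlap, but the log2 change of -1.03 (95% interval -1.93 to -0.13) did not pass (limma adjusted p = 0.0777). TNFSF15 was called lower among genes with a mean of 10 or more, and by voom without DMSO replicate 1.

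The 7 members below the filter were FASLG, LTA, TNF, TNFSF11, TNFRSF13B, TNFRSF17 and TNFRSF9, with at most 2 reads in a library and 1 to 3 reads over all 4. Another 10 tested members had a mean under 10 normalized counts and at most 11 reads in a library, TNFRSF18 among them. Many of the near-silent members are known from lymphocytes. Among leukocyte markers, CD3E of T cells and CD68 of macrophages had at most 3 reads in an AMF library and 0 reads in both DMSO libraries. Exons of 15 members overlap those of another gene in GENCODE, including the called members TNFRSF25, TNFRSF10A, FAS, NGFR, TNFRSF1B and TNFRSF14. Without strand in these libraries, reads from the shared stretch of such a pair cannot be told apart. Where both genes lie on the same strand, strand would not part them either. The longest overlap with a single gene was 36 of 3766 exon bases in TNFRSF1B and 924 of 4150 in NGFR.

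Promoters are shown for the called members with the largest rises (TNFRSF1B, TNFRSF21) and falls (TNFSF4, TNFRSF19) that have an entry in the RefSeq promoter table, so that genes moving in opposite directions can be compared by sequence. Each covers 250 bases before to 50 after a start site in build GRCh38.p14, 5′ to 3′ on the gene's strand, and 27 of the 43 members had an entry. Capitals mark GCGTG or its reverse complement, the core that the aryl hydrocarbon receptor is known to bind. TNFRSF19 has 2 entries, for separate start sites, and NGFR, with the largest fall, has none. TNFRSF18 rose by 2.42 but averaged fewer than 10 normalized counts and is not shown.
TNFRSF1B, chr1:12166741-12167040, plus strand: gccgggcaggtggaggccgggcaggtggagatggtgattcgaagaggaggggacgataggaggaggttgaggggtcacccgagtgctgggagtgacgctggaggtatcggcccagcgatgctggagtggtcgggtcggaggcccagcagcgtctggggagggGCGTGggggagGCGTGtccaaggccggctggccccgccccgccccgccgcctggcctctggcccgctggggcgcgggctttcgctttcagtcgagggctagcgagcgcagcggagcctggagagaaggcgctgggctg
TNFRSF21, chr6:47309856-47310155, minus strand: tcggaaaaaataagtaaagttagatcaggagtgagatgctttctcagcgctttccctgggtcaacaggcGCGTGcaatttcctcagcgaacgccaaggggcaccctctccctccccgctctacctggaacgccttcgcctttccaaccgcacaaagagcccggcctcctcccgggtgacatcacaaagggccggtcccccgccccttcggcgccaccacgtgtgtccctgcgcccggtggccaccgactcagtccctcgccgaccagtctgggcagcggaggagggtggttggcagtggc
TNFSF4, chr1:173205483-173205782, minus strand: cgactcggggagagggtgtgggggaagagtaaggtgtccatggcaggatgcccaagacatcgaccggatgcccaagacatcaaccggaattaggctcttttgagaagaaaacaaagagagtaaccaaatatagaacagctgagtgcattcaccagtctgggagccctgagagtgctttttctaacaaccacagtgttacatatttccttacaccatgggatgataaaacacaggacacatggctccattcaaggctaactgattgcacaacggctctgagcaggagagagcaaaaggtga
TNFRSF19, chr13:23570162-23570461, plus strand: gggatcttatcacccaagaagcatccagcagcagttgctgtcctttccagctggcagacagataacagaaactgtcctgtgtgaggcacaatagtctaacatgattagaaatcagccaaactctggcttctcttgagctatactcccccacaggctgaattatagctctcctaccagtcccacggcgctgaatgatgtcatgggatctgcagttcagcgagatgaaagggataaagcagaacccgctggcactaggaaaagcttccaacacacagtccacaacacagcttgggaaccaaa
TNFRSF19, chr13:23579110-23579409, plus strand: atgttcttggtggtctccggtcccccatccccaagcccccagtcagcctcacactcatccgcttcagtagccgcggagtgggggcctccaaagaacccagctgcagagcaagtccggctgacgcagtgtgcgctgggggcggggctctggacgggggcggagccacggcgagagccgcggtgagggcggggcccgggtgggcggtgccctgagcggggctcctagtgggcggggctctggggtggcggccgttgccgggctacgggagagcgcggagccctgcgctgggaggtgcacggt

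GCGTG occurred at 2 places in the TNFRSF1B promoter, starting at -88 and -77 from the start site, and at 1 place in that of TNFRSF21, at -181. It was in neither TNFRSF19 window nor in that of TNFSF4. On either strand 36.5% of 34943 promoters of this length held the core at least once and 12.6% at 2 or more places, and 10 of the 37 promoters of family members held it. The GC box GGGCGG, counted on both strands, was found at 2 places for TNFRSF1B, 1 for TNFRSF21, 5 for the second TNFRSF19 start and 0 for the first TNFRSF19 start and TNFSF4, and was in 44.9% of all promoters. GC content was 72.0% for TNFRSF1B, 63.3% for TNFRSF21, 48.3% for TNFSF4 and 49.0% and 72.7% for the TNFRSF19 starts. Matches describe letters in these windows and not binding.

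The genes that carry signals from these receptors were read from 6 lists, which hold 107 genes of the table in all. Of 97 tested, 20 rose, 30 fell and 47 did not pass, with a median log2 change of -0.04. Of the 78 that averaged 100 normalized counts or more, 19 rose and 30 fell, beside 23.6% and 31.1% of all genes at that level. Among 22 tested adaptors and death complex genes, 4 rose, 5 fell and 13 did not pass (median 0.02). Of these, 19 averaged 100 normalized counts or more, 4 higher and 5 lower, beside the same shares of all genes. The initiator caspase CASP8, which receptor-bound FADD recruits, had 1619.5 ± 30.4 normalized counts in AMF and 1006 ± 7.52 in DMSO and rose by 0.69 (SE 0.0605, limma adjusted p = 7.15e-07). Its regulator CFLAR, a caspase-like protein without protease activity, rose by 0.35, TRADD by 0.46 and the death effector gene DEDD2 by 0.59. TRAF4 (-0.46), the death domain silencer BAG4 (-0.38), the FAS-binding protein DAXX (-0.27) and the kinase RIPK1 (-0.27) fell. FADD had 310.1 and 306 in AMF and 278 and 246 in DMSO and did not pass (0.23, limma adjusted p = 0.126). The adaptor TRAF2 had 943 and 919 in AMF and 909.7 and 942 in DMSO and did not pass.

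Of 28 tested genes of the ubiquitin and kinase relay, 8 rose, 9 fell and 11 did not pass (median 0.04). Averaging 100 normalized counts or more were 26 of them, 8 higher and 9 lower, beside 23.6% and 31.1% of all genes. The members of the TAK1-binding group parted, as TAB3 rose to 4025 ± 27.3 in AMF, against 1929 ± 191 in DMSO (1.06, SE 0.0622, limma adjusted p = 1.08e-08), whereas TAB2 (-0.36) and TAB1 (-0.33) fell. RBCK1, a subunit of the linear ubiquitin ligase, rose by 0.45, the kinase MAP3K8 by 0.40 and the autophagy receptor-like TAX1BP1 by 0.35. Among the falls were the kinase IKBKE (-0.93), the ubiquitin-editing NF-kB inhibitor TNFAIP3 (-0.88), the deubiquitinase CYLD (-0.51) and the JNK kinase MAPK8 (-0.44).

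**Figure D4:**
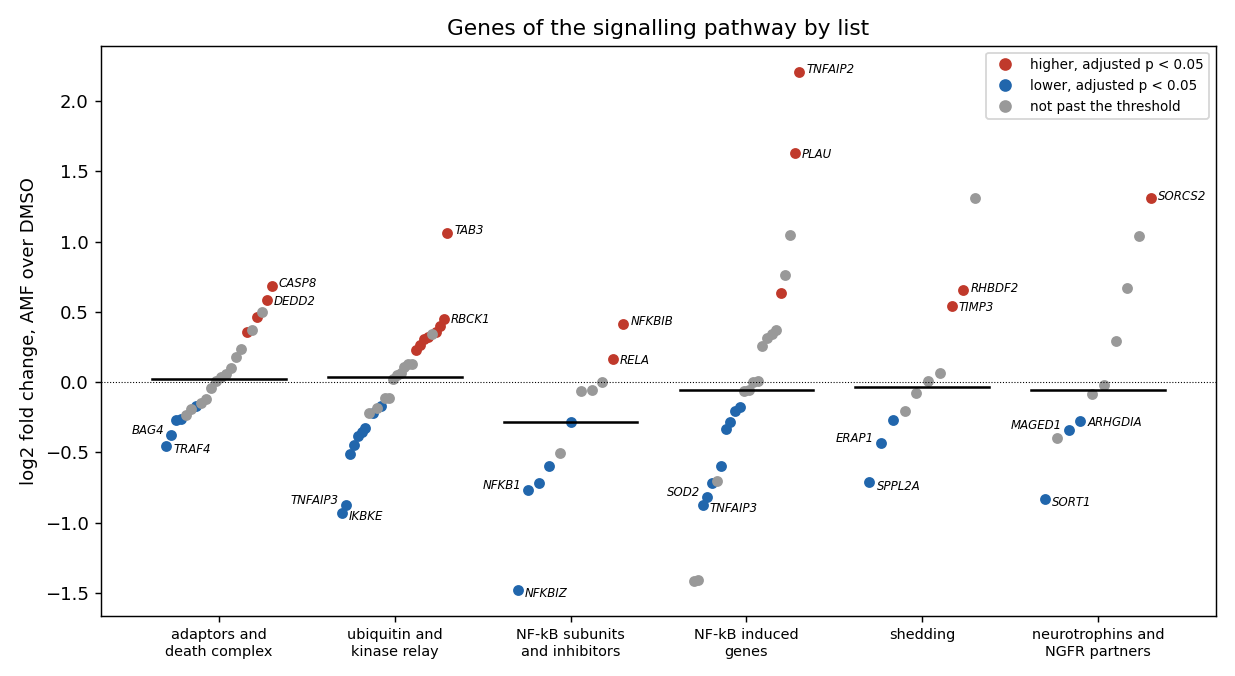
Log2 fold change of AMF over DMSO (y axis) for tested genes of 6 pathway lists, ordered within each list, with the list's median as a bar. Red genes were higher and blue genes lower at an adjusted p under 0.05, and the NF-kB subunit list has the lowest median, -0.28. Among genes averaging 100 normalized counts or more the median of that list is -0.17. At that level it is -0.31 for the 4 neurotrophin and NGFR partner genes and -0.04 for all genes.

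Among the 11 genes of NF-kB subunits and inhibitors, 2 rose, 5 fell and 4 did not pass, with a median of -0.28. Of these, 10 averaged 100 normalized counts or more, with 7 called, 5 of them lower, and a median of -0.17, beside 54.7% called and 31.1% lower among all genes at that level. NFKBIZ, an atypical nuclear inhibitor that is itself induced by NF-kB, had 126 ± 2.34 in AMF and 354 ± 24.1 in DMSO, and fell by 1.48 on the log2 scale (SE 0.122, limma adjusted p = 3.69e-07). NFKB1 (-0.77), NFKBIA (-0.72) and REL (-0.60) fell too, while the inhibitor NFKBIB (0.41) and the subunit RELA (0.16) rose. Of 24 tested genes that NF-kB is known to induce, 3 rose, 8 fell and 13 did not pass (median -0.06). There were 16 of them averaging 100 normalized counts or more, 3 higher and 8 lower, beside 23.6% and 31.1% of all genes. TNFAIP3 fell to 663 ± 22.5 in AMF, against 1218 ± 8.54 in DMSO (limma adjusted p = 2.00e-07), and SOD2 (-0.82), NFKBIA and the adhesion receptor ICAM1 (-0.60) fell. The rises were TNFAIP2 (2.21, SE 0.188, 269.9 ± 18.9 in AMF and 58.6 ± 16.1 in DMSO), the plasminogen activator PLAU (1.63) and GADD45B (0.63). Across the lists 8 genes stand on more than 1, NFKBIA, NFKB2 and TNFAIP3 among them, and each was counted once in the total.

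Of 10 tested genes of ligand and receptor shedding, 2 rose, 3 fell and 5 did not pass (median -0.03). Averaging 100 normalized counts or more were 9 of them, 2 higher and 3 lower, beside 23.6% and 31.1% of all genes. RHBDF2, a cofactor of the TNF-cleaving protease ADAM17, rose by 0.65 (3153 ± 48.9 in AMF and 2005 ± 47.1 in DMSO, limma adjusted p = 2.11e-07), as did the ADAM17 inhibitor TIMP3 by 0.54. ADAM17 itself had 1205 and 1164 in AMF and 1067 and 1208 in DMSO and did not pass. SPPL2A, an intramembrane protease that cuts TNF, fell by 0.71 on the log2 scale, ERAP1 by 0.43 and ADAM10 by 0.27. Among 10 tested partners of NGFR, 1 rose, 3 fell and 6 did not pass (median -0.05). Only 4 of these partners averaged 100 normalized counts or more, 0 higher and 3 lower, beside the same shares of all genes. SORT1, the sortilin co-receptor that binds proneurotrophins together with NGFR, had 2963 ± 38.5 in AMF and 5280.4 ± 89.6 in DMSO and fell by 0.83 on the log2 scale (SE 0.0459, limma adjusted p = 6.04e-09). MAGED1 (-0.34), which binds the NGFR tail, and ARHGDIA (-0.28) fell, and the sortilin relative SORCS2 rose (1.31, from few reads, 40.6 ± 2.29 in AMF and 17.1 ± 9.70 in DMSO).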

How the data were processed

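Poly(A) RNA of HepG2 cells was sequenced without strand information, per the labels' protocols. The submitters' processing notes name STAR 2.7.0, featureCounts and hg19. What annotation, filters and normalization the authors applied is not given in the sources used here. Log2 values were deposited for 30863 genes in 4 libraries, and 0 columns of other samples were present. Judged from the values alone, they look like size-factor-scaled counts after variance stabilization. Inverting that transformation gave whole reads, within 0.01 reads, for 100% of values. The groups were AMF and DMSO, with 2 libraries each, and their replicate pairs were further apart than counting alone gives, at a chi-square of 2.27 (AMF) and 4.02 (DMSO) per degree of freedom.

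The test was limma-trend (limma 3.58.1, R 4.3.3) on log2(normalized count + 1) for genes with a mean of at least 1, with a group term alone and adjustment by Benjamini and Hochberg over all 23828 genes tested. It was tested on simulated data. Family members with an adjusted p under 0.05 or a mean of at least 100 are described by library, and from each pathway list up to 4 rises and 4 falls with a mean of at least 10. Members and lists were chosen with earlier results of these data known. Level per length used exon lengths of GENCODE release 29, on another build than hg19. Intervals and floors of reads cover counting error only, as reads lacking molecular identifiers may be copies of 1 molecule. Alternatives were a pseudocount of 0.1, other filters, the deposited log2 values, voom, library totals, the replicate block, an adjusted p of 0.01 and each library left out. Figures used matplotlib 3.10.9 in Python 3.11.15. Members and list genes without a row were not analysed here. The summed level of the leukocyte markers is not reported here.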

Additional observations from a re-analysis of the deposited data

How the results depend on the processing

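The count of members higher in AMF was 11 in the report and 9 to 12 under a pseudocount of 0.1, no filter, a mean of at least 10, the deposited log2 values, voom, library totals, the replicate block and an adjusted p of 0.01, and that of members lower was 3 to 4 against 3. The same 11 and 3 genes were called with a pseudocount of 0.1, without a filter and on the deposited values. Sizes on the deposited scale were smaller, at 1.71 for TNFRSF1B, -1.48 for NGFR and 0.38 for TNFRSF18. LTBR joined with voom, library totals, the replicate block and a mean of at least 10, which also gained TNFRSF13C and TNFSF15 and left TNFRSF18 untested. TNFRSF18 and TNFSF9 left at an adjusted p of 0.01. With the replicate block 12 members were higher and 3 lower, and 8157 genes in all were called instead of 7578. Same-numbered libraries did not deviate together (correlation 0.02 over 11137 genes). This correlation rests on a single replicate difference per group and cannot show whether the numbers pair the samples. On the recovered reads voom called 7714 genes. Library totals moved the median of all genes by 0.02. With 1 library left out, limma-trend counts ran from 0 to 12 for members higher, 0 to 3 for members lower, 0 to 6177 for all genes, 0 to 18 for pathway genes higher and 0 to 26 for pathway genes lower. In voom these ranges were 3 to 10, 2 to 5, 1762 to 6773, 9 to 19 and 8 to 31. Without DMSO replicate 1 limma-trend called 3901 genes. Without AMF replicate 2 voom called 15 pathway genes lower. The fits of voom without 1 library were chosen after seeing the data. The 0 counts arose in limma-trend without an AMF library, where the prior degrees of freedom were 1.02 and 1.35 against 11.9 with all libraries, while voom without AMF replicates 1 and 2 called 1762 and 3151 genes. Without AMF replicate 1 voom kept 3 members higher and 2 lower, and without AMF replicate 2 it kept 6 and 2. A group left with 1 library is assumed to vary like the other. Voom without DMSO replicate 1 gained TNFRSF10B and TNFSF15 as lower. The change of TNFRSF10B was -0.14 without DMSO replicate 1 and 0.01 without DMSO replicate 2, and without DMSO replicate 1 that of TNFRSF12A was -0.03 instead of 0.09. No called member changed direction. Depth limits the 7 untested and 10 tested members with a mean under 10, and with 2 libraries per group an exact permutation test cannot go below 0.333.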
